A study of Mus musculus with 8 samples.

Results

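The transcriptome of mouse embryonic stem cells lacking TRIM71 was compared with that of cells in which only the 3' untranslated region of Mbnl1 had been changed. The members of the comparison were chosen by the genotype in the sample labels: 2 knockout and 2 mutant libraries, 4 of the 8 libraries of the series. All came from a parental line on a (129xC57BL/6) background with the Rosa26Cre-ERT2/BirA-V5 allele, which supplies Cre-ERT2, a Cre recombinase switched on by tamoxifen, and the biotin ligase BirA. The knockout carried TRIM71-/- in addition, and the mutant was homozygous for the Mbnl1 3'UTR(mut) allele. Cells were kept without feeders on gelatin-coated dishes in serum and LIF, and stranded total RNA was read as pairs of 75 nt. The labels do not say whether a group is 1 clone or several, or whether its libraries are separate cultures. A difference between clones can therefore not be told apart from the genetic change, and the p-values measure the spread between these libraries, which may be technical.

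TRIM71 (LIN-41) is an RNA-binding protein of the TRIM-NHL family that is made in early embryos and stem cells. It binds hairpins in the 3'UTRs of target mRNAs and lowers their translation or stability. MBNL1 is a splicing regulator of differentiated cells, and the series title names its repression by TRIM71. The comparison asks what the loss of TRIM71 changes relative to a line in which the altered element is in the Mbnl1 mRNA alone.

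Total counts were 86508533 and 82301999 in the knockout and 84387771 and 83859784 in the mutant, so that 3 counts correspond to 0.0347 to 0.0365 CPM, the count relative to a common library total. Levels below are CPM after TMM scaling, which corrects for library composition, and summed levels of a list are CPM by library total alone. Log-CPM correlated across genes at 0.997 between the knockout libraries, at 0.9958 between the mutant libraries and at 0.9812 to 0.9823 between the groups. Mutant replicate 2 stood apart in its small RNAs, with 892 CPM from snoRNA genes against 541 to 585 CPM in the other 3 libraries. Its part in the results was tested only by leaving that library out. The 8 markers of embryonic stem cell identity had a summed level of 4650 and 4710 CPM in the knockout and 4539 and 4591 CPM in the mutant. Pou5f1 (OCT4), the central pluripotency factor, stood at 1150 and 1159 CPM in the knockout and at 1208 and 1256 CPM in the mutant (log2 difference -0.09, adjusted p = 0.0568, edgeR, not passing). None of the 11 annotated markers of the rare 2-cell-like state reached the count filter, and their sum stayed at or under 0.0477 CPM in every library.

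Trim71 was read first, as the check of the labels. Its gene (ENSMUSG00000079259.2) lies on the minus strand of mm10 chromosome 9, from 114507133 to 114564369. The knockout libraries had 99.9 and 104 CPM and the mutant libraries 686 and 691 CPM. The groups were far apart, by 6.75-fold (log2 difference -2.76, SE 0.0376, adjusted p = 7.98e-13, edgeR's quasi-likelihood test). The exons behind the remaining reads cannot be seen in gene-level counts.

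The gene that differed most among well-counted named genes was the neighbour of Trim71 on the same strand. Ccr4, a chemokine receptor of T cells, lies at chromosome 9, 114490316 to 114504916, 2216 bases beyond the 3' end of Trim71. It had 8306 and 8012 counts in the knockout against 15 and 11 in the mutant, or 95.4 and 96.2 CPM against 0.179 and 0.133 CPM. The log2 difference was 9.25 (SE 0.0838, adjusted p = 1.43e-14, edgeR). Where these transcripts begin was not tested.

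Mbnl1 mRNA was higher in the line without TRIM71 than in the line with the altered 3'UTR. Mbnl1 (chromosome 3, 60472830 to 60629750, plus strand) was read at 48.1 and 50.3 CPM in the knockout and at 28.3 and 27.3 CPM in the mutant, 1.77-fold apart (log2 difference 0.82, SE 0.0447, adjusted p = 5.13e-08, edgeR). The libraries did not overlap, which held for 72.8% of all tested genes and for 100% of those that passed. Mbnl2, a paralog with overlapping splicing targets, went the other way, at 48.9 and 51.5 CPM against 70.1 and 58.1 CPM (log2 difference -0.35, SE 0.0953, adjusted p = 0.0333). That call was lost when libraries were scaled by their totals alone (adjusted p = 0.0541) and without knockout replicate 1 (adjusted p = 0.0894). Mbnl3, the third member, had 6.85 and 6.98 CPM in the knockout and 6.73 and 6.91 CPM in the mutant, overlapping and not passing (log2 difference 0.02, adjusted p = 0.846).

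**Figure D1:**
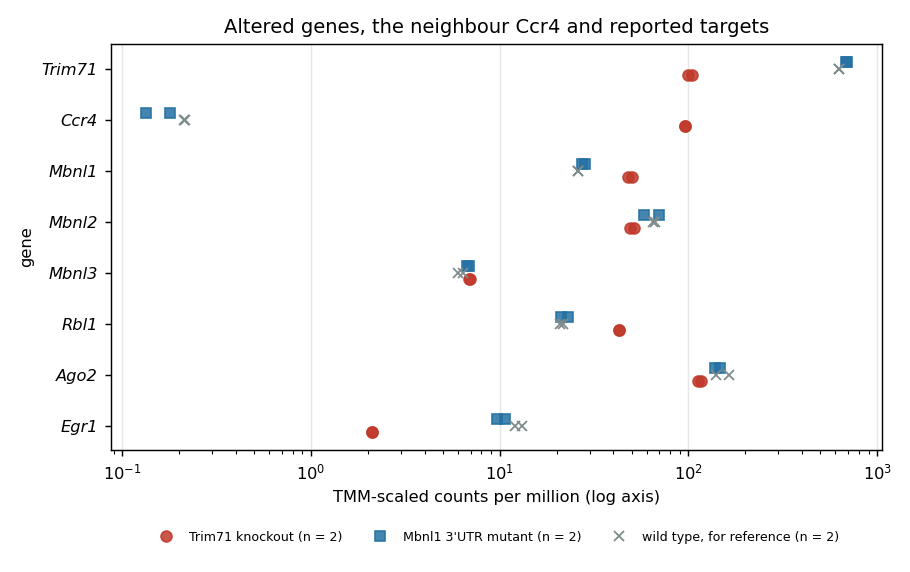
Level of the altered genes, of the neighbour Ccr4 and of other reported TRIM71 targets in each library, in TMM-scaled CPM on a log axis. Each point is 1 library, with 2 knockout libraries (circles), 2 mutant libraries (squares) and 2 wild-type libraries for reference (crosses). Trim71 lies at 99.9 and 104 in the knockout against 686 and 691 in the mutant, and Ccr4 at 95.4 and 96.2 against 0.179 and 0.133.

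Of 17367 genes tested, 8094 (46.6%) passed an adjusted p of 0.05 in edgeR's quasi-likelihood test. In the knockout 4238 (24.4%) were higher and 3856 (22.2%) lower, and the median over all tested genes was -0.00429 on the log2 scale. Most differences were small, with a median of 1.28-fold among the genes that passed and 45.6% of them under 1.25-fold. At 2-fold or more there were 1341 genes (7.72%), of which 924 (5.32%) were higher and 417 (2.4%) lower. Leaving out a library of the knockout lowered the number passing to 4723 without replicate 1 and 4456 without replicate 2. In simulations of this comparison 11.1% of the calls were false, where the threshold allows 5%. Far fewer genes were changed in them than passed here, so that share does not carry over to the 8094 genes. Of the unchanged genes in the simulations, 0.105% were called. With nearly every other gene passing, the counts within gene lists below are read beside these shares, and no list was tested as a set.

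**Figure D2:**
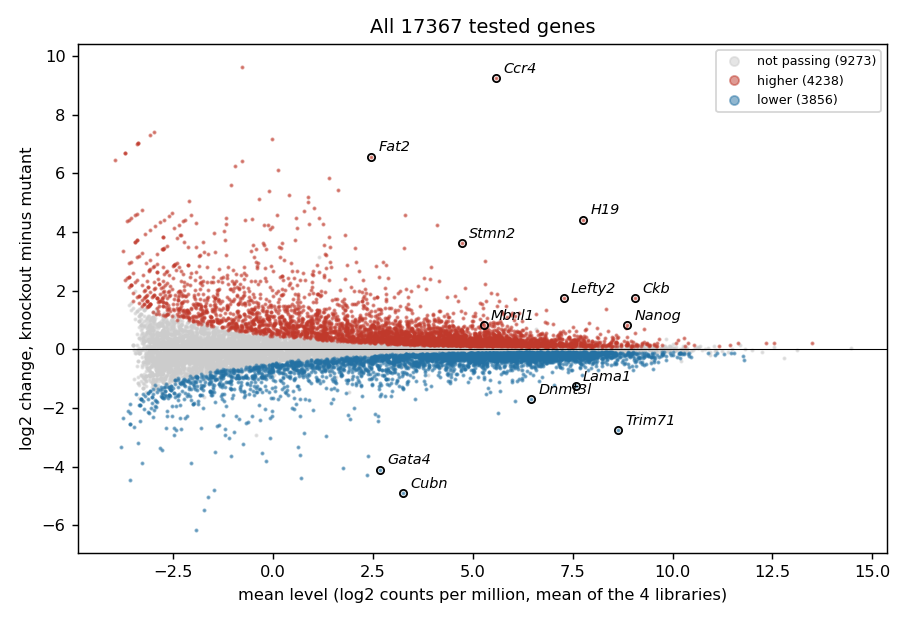
Log2 difference, knockout minus mutant, of each of the 17367 tested genes against its mean level over the 4 libraries in log2 CPM. Red and blue points are the 4238 higher and 3856 lower genes, grey points did not pass, and circled genes are described in the text. Differences of several log2 units occur at every level below about that of H19, and the most abundant genes lie close to 0.

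Among the reported direct targets of TRIM71, the mRNA differences did not share a direction. Of 6 genes taken from general knowledge, Mbnl1, Rbl1 and Rbl2 were higher in the knockout, Egr1 and Ago2 were lower, and Cdkn1a did not pass. Rbl1, which encodes the pocket protein p107, was read at 42.6 CPM in both knockout libraries and at 23 and 21.1 CPM in the mutant (log2 difference 0.95, SE 0.0499, adjusted p = 4.02e-08, edgeR). Rbl2, its relative p130, differed by 0.22 (adjusted p = 0.0216). Egr1, an immediate-early transcription factor induced by ERK signalling, had 2.11 CPM in both knockout libraries against 10.7 and 9.7 CPM in the mutant (log2 difference -2.27, adjusted p = 3.62e-09). Ago2, the slicing Argonaute of the microRNA pathway, was lower by a modest amount, at 116 and 113 CPM against 139 and 147 CPM. Cdkn1a (p21) stood at 8.62 and 8.75 CPM against 7 and 8.83 CPM, with overlapping libraries (log2 difference 0.13, adjusted p = 0.297).

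The genes furthest apart included several that were nearly silent in the mutant. By the naming rule (the 15 highest and 15 lowest genes passing whose mean log2 CPM was 1 or more), Fat2, a giant cadherin, was read at 10.8 and 10.9 CPM in the knockout and at 0.107 and 0.121 CPM in the mutant. Itpr2, an intracellular calcium channel, had 32.9 and 32.4 CPM against 1.7 and 1.74 CPM, and the bicarbonate transporter Slc4a5 had 19.4 and 18.5 CPM against 0.74 and 0.832 CPM. In both the groups were more than 15-fold apart. Aldh3b2, Gpld1, Zfp951, Wif1, Col5a2, Oas1a, Slfn9 and Pla2g4a were also higher, by 3.46 to 5.83 on the log2 scale, at 3.71 to 7.72 CPM in the knockout. At the other end stood Pcdh17, a protocadherin, at 0.598 and 0.528 CPM against 4.14 and 4.72 CPM, and Nt5e (CD73), which makes adenosine, at 2.06 and 2.04 CPM against 9.6 and 9.55 CPM. Cemip, a hyaluronan-binding protein, and Megf11 were lower by 2.08 and 1.83.

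Among the abundant genes named (mean of at least 100 CPM), H19 (log2 difference 4.42, SE 0.169) and Trim71 (-2.76, SE 0.0376) were furthest apart. Trim71 is described above and H19 with the imprinted genes below. The other differences were smaller but narrowly measured. Ckb, the brain-type creatine kinase, stood at 805 and 847 CPM in the knockout and 235 and 257 CPM in the mutant (log2 difference 1.75, SE 0.0477, adjusted p = 4.41e-10, edgeR). Ptch1, the Hedgehog receptor and itself a Hedgehog target, stood at 472 and 457 CPM against 177 and 180 CPM. Both were higher in each knockout library than in each mutant library, and the groups were likewise apart in 100% of the genes that passed. In the lower direction were the ubiquitin ligase Trim2, at 72.6 and 74.5 CPM against 139 and 140 CPM, and Kdm2b, a histone demethylase that recruits Polycomb complexes to CpG islands, at 151 and 150 CPM against 275 and 272 CPM.

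Genes of the pluripotency network differed in both directions. Naive pluripotency is the state of the early epiblast, formative and primed pluripotency the states that follow. Of 24 naive genes, 12 were higher and 8 lower (median log2 difference 0.09), while of 19 core pluripotency genes 4 were higher and 11 lower (median -0.17). Of 19 formative and primed genes, 3 were higher and 12 lower (median -0.32). Nanog (chromosome 6, 122707489 to 122714633, plus strand), a homeodomain factor that holds cells in self-renewal, was read at 596 and 587 CPM in the knockout and 340 and 331 CPM in the mutant. That is 1.77-fold (log2 difference 0.82, SE 0.0345, adjusted p = 6.52e-09, edgeR), with both groups narrow and far apart.

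Around Nanog, Prdm14, a repressor of differentiation that keeps DNA methylation low, was 0.56 higher, and Manba, a lysosomal mannosidase used as a naive marker, was 0.91 higher. Esrrb, Zfp42, Klf4, Nr5a2 and Nr0b1 were higher by 0.16 to 0.42. Against them, Tfcp2l1, Tbx3, Gbx2, Tcl1 and Lifr, also genes of the naive network, were lower by 0.30 to 0.52, and Klf2 did not pass (193 and 196 CPM against 189 and 193 CPM, log2 difference 0.03). The largest differences of the naive list, in each direction, were at low levels. Dppa3 was 1.38 higher, at 1.99 and 1.5 CPM against 0.585 and 0.76 CPM. Rex2 was 1.16 lower, at 4.94 and 4.61 CPM against 11.6 and 9.74 CPM. Its level is uncertain, since it belongs to the near-identical zinc finger genes of distal chromosome 4 described at the end. In the core list Sall1 was 0.70 higher. Lin28a, an RNA-binding protein that blocks maturation of let-7 microRNAs, was 0.62 lower, at 380 and 376 CPM against 572 and 586 CPM, and its paralog Lin28b was 0.33 lower. Without knockout replicate 2 the naive genes called higher numbered 7, and without knockout replicate 1 the formative genes called lower numbered 7. With either knockout library left out, 2 core genes and 1 formative gene were called higher.

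The formative genes that were lower included the enzymes that write new DNA methylation. DNA methylation is set by DNMT3A and DNMT3B with the cofactor DNMT3L, copied by DNMT1 and UHRF1, and removed by the TET enzymes. Dnmt3l (chromosome 10, 78041947 to 78063622) stood at 40.9 and 41.6 CPM in the knockout and 130 and 141 CPM in the mutant (log2 difference -1.71, SE 0.0447, adjusted p = 1.69e-10, edgeR). Dnmt3a stood at 49.4 and 49.3 CPM against 101 and 103 CPM (log2 difference -1.05). For each of them the mutant libraries were more than 2-fold above the knockout libraries. Of the 9 enzymes listed, 5 were lower and 3 higher: Tet1 (-0.48), Dnmt1 (-0.33) and Dnmt3b (-0.14) were the others lower, and Tet2 (0.30), Tet3 (0.21) and the glycosylase Tdg (0.33) were higher. Uhrf1 did not pass (0.03). Also lower in the formative list were Cdh2 (-1.05), which encodes N-cadherin, and the POU factor Pou3f1 (-0.78).

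Genes of the Rhox cluster and of the germline, many of which are kept silent by promoter methylation in somatic cells, were mostly on the side of the knockout. Of 27 listed, 22 passed the count filter, of which 13 were higher and 2 lower (median 0.70). Since a gene silent in 1 group passes the filter only through the other, this count is a description. Rhox5 (chromosome X, 37804842 to 37808876), a homeobox gene of the placenta and testis, was read at 30.2 and 29 CPM against 5.4 and 6.33 CPM (log2 difference 2.34, SE 0.0707, adjusted p = 4.78e-10, edgeR). Rhox6 stood at 3.25 and 3.38 CPM against 0.119 and 0.133 CPM, and the testis gene Tex13b at 2.41 and 2.72 CPM against 0.107 and 0.0241 CPM. Dazl, an RNA-binding protein of germ cells, was 0.89 higher. The 2 lower genes were Tdrd1 (-0.74) and Ddx4 (-0.37), both of the piRNA pathway. Rhox genes have near-identical copies, so the assignment of reads among them is uncertain.

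Imprinted genes, expressed from 1 parental copy, went in both directions: of 33 tested, 9 were higher and 15 lower (median -0.14). The largest difference with high counts was at H19, an imprinted long noncoding RNA (chromosome 7, 142575529 to 142578143, minus strand). It stood at 412 and 415 CPM in the knockout and at 21.9 and 16.8 CPM in the mutant, 21.4-fold apart (log2 difference 4.42, SE 0.169, adjusted p = 0.00112, edgeR). H19 shares exon sequence with Mir675, the microRNA made from it. Igf2, the fetal growth factor of the same imprinted domain, had 46 and 44.1 CPM against 10.3 and 10.7 CPM (log2 difference 2.10). H19 is normally read from the maternal and Igf2 from the paternal copy of this domain, and the RNA of both was higher in the knockout. Cdkn1c (p57), an imprinted inhibitor of cell division, was lower at 64.6 and 63.6 CPM against 138 and 134 CPM, and Nnat was lower at 1.29 and 1.15 CPM against 6.48 and 6.14 CPM. Rtl1 had 0.023 and 0 CPM in the knockout and 0.549 and 0.627 CPM in the mutant. Without knockout replicate 1, 5 of the imprinted genes were called higher.

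**Figure D3:**
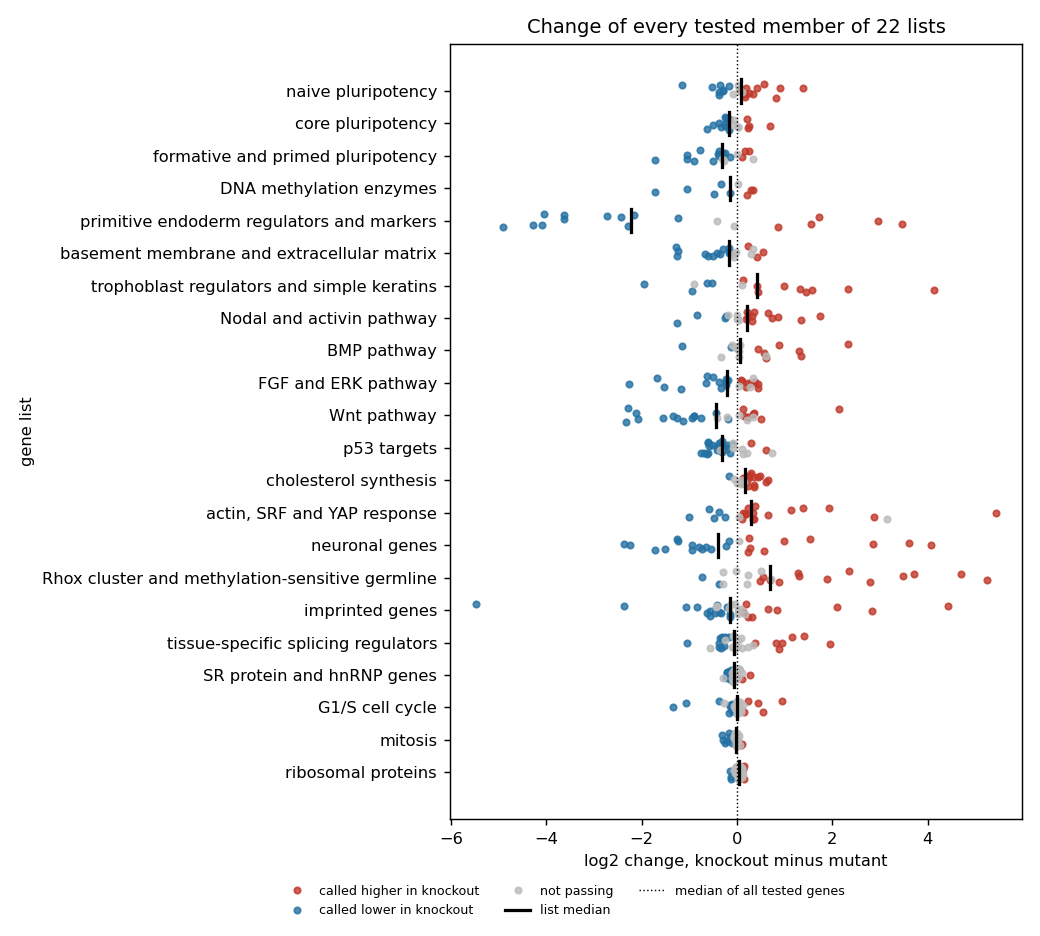
Log2 difference, knockout minus mutant, of each tested member of 22 gene lists, 1 point per gene, with the list median as a black bar and the median of all tested genes as a dotted line. Red and blue points passed the test as higher or lower and grey points did not. The primitive endoderm list has its median at -2.22, and the ribosomal, mitotic and SR protein lists cluster around 0.

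Primitive endoderm genes were the group with the lowest median, -2.22 over 18 tested genes, of which 11 were lower and 5 higher. Primitive endoderm is the extraembryonic lineage that lines the blastocyst cavity and gives rise to the yolk sac. A small share of embryonic stem cells in serum takes on this state. GATA6 and GATA4 are its leading transcription factors, followed by SOX17 and SOX7, and PDGFRA is its signature receptor. In bulk RNA, fewer cells of a type and less RNA per cell cannot be told apart. Gata6 (chromosome 18, 11052064 to 11085635) was read at 0.379 and 0.384 CPM in the knockout and at 5.98 and 6.65 CPM in the mutant (log2 difference -4.04, SE 0.138, adjusted p = 1.27e-09, edgeR). Gata4 (chromosome 14, 63198922 to 63271692) was read at 0.644 and 0.756 CPM against 11.1 and 12.9 CPM (log2 difference -4.10, SE 0.119, adjusted p = 3.85e-10). Both factors were more than 15-fold apart, and both stayed well above the level of 3 counts in the knockout.

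Downstream of these factors, the receptor Pdgfra stood at 0.896 and 0.66 CPM against 8.88 and 10.4 CPM, a log2 difference of -3.63. It shares exon sequence with Mir7025. Genes of the endocytic machinery by which visceral endoderm takes up nutrients were lower with it. Cubn (cubilin) stood at 0.379 and 0.852 CPM against 15.5 and 21.2 CPM, Lrp2 (megalin) at 17.8 and 18.6 CPM against 75.2 and 87.9 CPM, and the adaptor Dab2 at 2.01 and 1.87 CPM against 9.23 and 11.8 CPM. In these the groups did not overlap, which held for 100% of the genes that passed. The median of the list was 0.24 higher in mutant replicate 2 than in mutant replicate 1, against 0.02 between the knockout libraries. It was -2.42 without mutant replicate 1 and -1.92 without mutant replicate 2. Srgn (serglycin), at 0.333 and 0.672 CPM against 6.82 and 12.5 CPM, passed with an adjusted p of 0.0378 and missed the threshold without knockout replicate 1 (adjusted p = 0.159) and without knockout replicate 2 (adjusted p = 0.126).

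The 5 members on the other side were Foxa2, Sox18, Thbd, Pth1r and Fst. Foxa2 (chromosome 2, 148042877 to 148046969, minus strand), a forkhead factor of visceral and definitive endoderm, was read at 17.5 and 17.8 CPM in the knockout and at 1.53 and 1.71 CPM in the mutant (log2 difference 3.45, SE 0.0778, adjusted p = 4.76e-11, edgeR). Sox18, better known from endothelium, was read at 11.8 and 11.9 CPM against 1.55 and 1.5 CPM. These 2 went against the GATA factors by a wide margin in every library. Thbd, Pth1r and Fst were higher by 1.71, 1.56 and 0.85. The summed level of the list was 76.9 and 79.3 CPM in the knockout and 156 and 189 CPM in the mutant. Afp and Ttr, markers of mature visceral endoderm, had at most 3 counts in any library.

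The basement membrane, the sheet of laminin and collagen that primitive endoderm lays down in quantity, had a smaller difference. Of 20 genes, 12 were lower and 3 higher (median -0.17). The 3 chains of laminin-111 were all lower: Lama1 at 111 and 114 CPM against 247 and 288 CPM (log2 difference -1.25, SE 0.075, adjusted p = 4.94e-05, edgeR), Lamb1 at 76.5 and 78.2 CPM against 171 and 193 CPM, and Lamc1 at 562 and 567 CPM against 891 and 914 CPM. Sparc (-0.60) and fibronectin, Fn1 (-0.51), were lower with them, as was the collagen prolyl hydroxylase P4ha2 (-1.27). The type IV collagens did not pass (Col4a1 0.30, Col4a2 0.34). Fbln1, Plod1 and Vcan were higher by 0.23 to 0.55, and without mutant replicate 2 the number higher was 5.

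**Figure D4:**
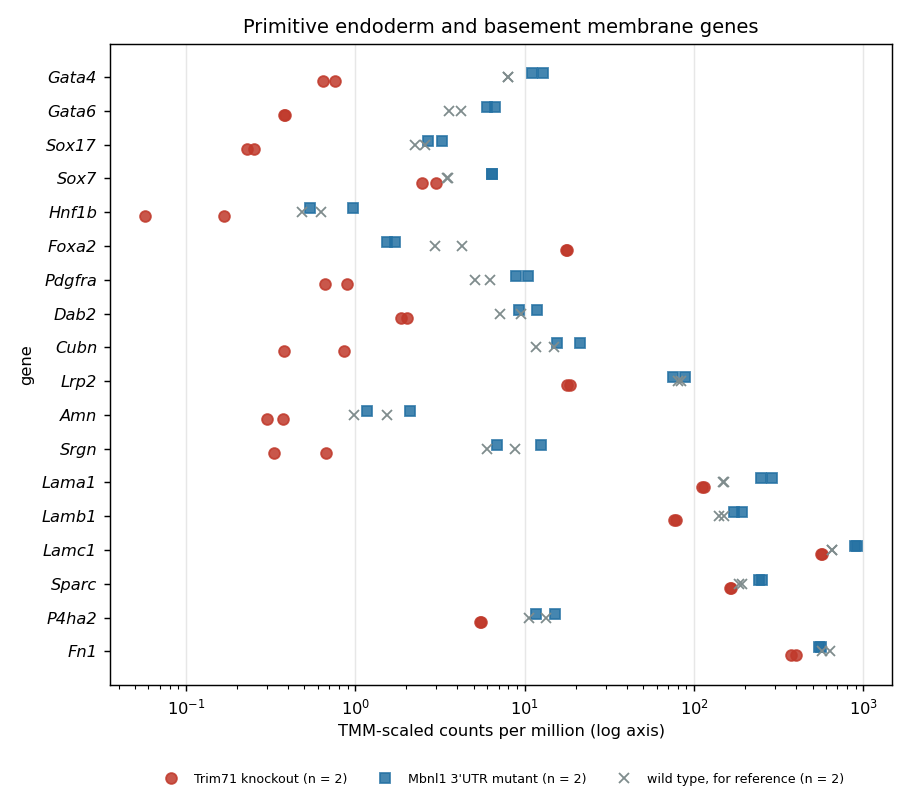
Level of 18 primitive endoderm and basement membrane genes in each library, in TMM-scaled CPM on a log axis, with 2 libraries of the knockout (circles), the mutant (squares) and wild type for reference (crosses). Knockout circles lie to the left of the mutant squares in each drawn gene except Foxa2, where they lie at 17.5 and 17.8 against 1.53 and 1.71. The drawn genes were picked from longer lists, so this shared side is partly a product of the choice. Members higher in the knockout that are not drawn are Sox18, Thbd, Pth1r, Fst, Fbln1, Plod1 and Vcan. Col4a1 and Col4a2, which did not pass, are not drawn either.

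Regulators of the other extraembryonic lineage, the trophoblast, were more often higher: of 15 tested, 9 were higher and 4 lower (median 0.41). Tfap2c, a transcription factor shared by trophoblast and germ cells, stood at 53.3 and 54.6 CPM against 18.6 and 17.5 CPM (log2 difference 1.58, SE 0.047, adjusted p = 4.1e-10, edgeR). Gata2 was 1.33 higher, and the simple keratins Krt7, Krt19, Krt18 and Krt8 were higher by 4.14, 1.44, 0.98 and 0.41. The transcription factors of trophoblast stem cells went in both directions. Gata3 was higher, at 0.701 and 0.936 CPM against 0.131 and 0.193 CPM. Lower were Cdx2 at 0.184 and 0.18 CPM against 0.358 and 0.35 CPM, and Eomes at 2.62 and 2.39 CPM against 3.74 and 3.49 CPM. The lower members of the list also included Tfap2a, at 0.195 and 0.168 CPM against 0.704 and 0.712 CPM (log2 difference -1.95), and Ascl2 (-0.63). Elf5 had 4 and 2 counts in the knockout and 0 in both mutant libraries. With either knockout library left out, 2 of the trophoblast genes were called lower.

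Signalling genes were taken in the order of ligand, receptor and target. Nodal, a TGF-beta ligand, signals through activin receptors and SMAD2 and SMAD3 and induces its own inhibitors, the Lefty proteins. Of 19 genes of this pathway, 11 were higher and 4 lower (median 0.20). Nodal itself was lower, at 36.6 and 37.9 CPM against 65.5 and 67.6 CPM (log2 difference -0.84, SE 0.0415, adjusted p = 2.57e-08, edgeR), while Inhbb, a subunit of activin, was 0.73 higher. The receptors Acvr1b, Acvr2a, Acvr2b and Tgfbr1 were higher by 0.19 to 0.35. Lefty2 (chromosome 1, 180893108 to 180899103) was the most changed target, at 241 and 237 CPM against 69.4 and 72.5 CPM (log2 difference 1.75, SE 0.0364, adjusted p = 2.67e-11), and Lefty1 stood at 162 and 164 CPM against 59.3 and 68.8 CPM. In both Lefty genes every knockout library exceeded every mutant library by more than 2-fold. The further targets Smad7, Skil and Pmepa1 did not pass, at -0.00, 0.01 and 0.05.

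In the BMP pathway, whose immediate targets are the Id genes, 7 of 18 genes were higher and 2 lower (median 0.06), and the ligand Bmp4 and the receptor Bmpr1a did not pass (-0.05 and 0.04). Id4 was read at 11.6 and 12 CPM against 4.74 and 4.61 CPM (log2 difference 1.34). Id3 and Id2 were higher by 0.87 and 0.61, but Id1 was lower by 0.12. The inhibitor Smad6 was 1.31 higher. Of the secreted antagonists, Nog was higher, at 0.954 and 0.804 CPM against 0.167 and 0.181 CPM, Chrd was 0.45 higher and Grem1 was 1.15 lower. The number lower was 1 with either knockout library left out and 4 without mutant replicate 2.

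In the FGF and ERK pathway, which drives cells out of the naive state, 8 of 24 genes were higher and 13 lower (median -0.21). Of the ligands, Fgf4 was 0.18 higher and Fgf15 was 0.24 lower. Of the receptors, Fgfr1 and Fgfr2 were each 0.44 higher, and Fgfr4 was lower, at 0.264 and 0.42 CPM against 0.848 and 1.12 CPM. Several immediate-early targets were lower. Beside Egr1, Myc stood at 74.2 and 72.1 CPM against 118 and 109 CPM, and the feedback inhibitor Spry2 at 117 and 113 CPM against 178 and 176 CPM. Dusp6, the ERK phosphatase, was lower by 0.24. The number called higher was 4 without knockout replicate 2. Over genes with a mean of at least 1 CPM the list's median was -0.07.

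Of 26 Wnt genes, 7 were higher and 14 lower (median -0.44). Axin2, the general target of beta-catenin, was read at 5.88 and 4.8 CPM against 14.1 and 13 CPM (log2 difference -1.34, SE 0.0903, adjusted p = 7.36e-07, edgeR). The ligand Wnt6 was 1.14 lower and Wnt7b 2.14 higher. Of the lower genes, 7 had a mean under 1 CPM. Over genes with a mean of at least 1 CPM, 7 were lower and the list's median was -0.03, close to that of all genes. Without knockout replicate 1, and in DESeq2, 9 were lower.

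The p53 list leaned one way, by small steps. p53 activates genes of cell-cycle arrest, repair and apoptosis. Of 30 targets 21 were lower and 2 higher (median -0.31), against 22.2% lower among all genes. Pmaip1 (NOXA), which sets off apoptosis, stood at 62.2 and 59.8 CPM against 105 and 99.6 CPM (log2 difference -0.75, SE 0.0402, adjusted p = 4.96e-08, edgeR). Plk2 (-0.69), the RNA-binding protein Zmat3 (-0.63), Perp (-0.59) and Mdm2 (-0.34), the ligase that degrades p53, were lower too, and no member was lower by 2-fold. The 2 higher genes were Btg2 (0.60) and Gdf15 (0.30), and 1 of the 2 was called with either knockout library left out. Cdkn1a, the best-known target, is the member given above as overlapping.

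Cholesterol synthesis leaned the other way by still smaller steps: of 25 genes, 19 were higher and 1, Idi1 (-0.17), was lower (median 0.16), against 24.4% higher among all genes. Hsd17b7 stood at 32.6 and 31.4 CPM against 20 and 20.5 CPM (log2 difference 0.66, SE 0.0472, adjusted p = 4.75e-07, edgeR). The mevalonate kinase Mvk (0.61), the sterol sensor partner Insig1 (0.48) and the squalene synthase Fdft1 (0.45) were higher. The number higher was 11 with either knockout library left out, and the number lower was 2 without mutant replicate 2.

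Stress and metabolic lists were divided. Of 28 ATF4 and unfolded protein response genes, 8 were higher and 9 lower (median -0.02), and 5 of each with either knockout library left out. Xbp1, the transcription factor of the unfolded protein response, stood at 101 and 99.3 CPM against 42.8 and 43.1 CPM (log2 difference 1.22, SE 0.0368, adjusted p = 4.36e-10, edgeR). Slc7a11, the cystine transporter, was 1.46 higher and Atf3 was 0.79 lower. Of 29 glycolysis and hypoxia genes, 7 were higher, among them the glucose transporter Slc2a1 (0.42), and 9 lower, among them Pdk1 (-0.38). With either knockout library left out, 4 were lower.

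Genes of the actin programme were mostly higher, by very unequal amounts. The factor SRF, with its cofactors, drives actin and its partners through a site called the CArG box, while YAP drives Ccn1, Ccn2 and Amotl2. Of 22 genes tested, 15 were higher and 5 lower (median 0.29), or 9 higher without knockout replicate 1. To show the SRF site in this group, RefSeq promoter windows (250 bases before to 50 after the start, GRCm38.p6) were searched on both strands for the CArG box. It occurred in 7 of the 20 list members with a window (35%), against 1.81% of 27025 genes. These matches are a description of the sequence and not evidence of binding. The list was written to include SRF response genes, so its contrast with all genes is no test. The box with 10 bases on each side is shown for 4 members that differed, 1 box each, 5′ to 3′ on the gene's strand, with the box in capitals. Srf has a second box starting at -62.

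Acta1 (chr8:123894829-123894858, minus strand, box starting at -73): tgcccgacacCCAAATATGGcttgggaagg
Myl9 (chr2:156775293-156775322, plus strand, box starting at -161): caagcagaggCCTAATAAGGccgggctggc
Cnn2 (chr10:79988534-79988563, plus strand, box starting at -56): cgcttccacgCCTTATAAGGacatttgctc
Srf (chr17:46556225-46556254, minus strand, box starting at -82): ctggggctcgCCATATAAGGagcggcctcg

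Acta1, skeletal muscle actin (chromosome 8, 123891769 to 123894751), was read at 5.58 and 6.52 CPM in the knockout and at 0.191 and 0.0845 CPM in the mutant (log2 difference 5.44, SE 0.217, adjusted p = 6.48e-09, edgeR). Myl9, a myosin light chain, was 1.38 higher, Srf 0.34 and Cnn2 0.24. The other 3 members with the box were Actg1 and Vcl, higher by 0.10 and 0.12, and Actc1, which was under the count filter. Tagln, an actin-bundling protein of smooth muscle, had 12.4 and 12.7 CPM against 1.6 and 1.82 CPM, and Thbs1 had 14.5 and 13.4 CPM against 3.7 and 3.62 CPM. Acta2, smooth muscle actin, was uneven in the mutant, at 0.119 and 0.784 CPM against 4.14 and 3.89 CPM in the knockout, and did not pass (log2 difference 3.15, adjusted p = 0.0832). The ordinary cytoplasmic actin Actb was lower (-0.38), and of the YAP targets Ccn1 was higher (0.35), while Amotl2 (-0.58) and Ccn2, at 26.3 and 25.9 CPM against 51.1 and 53.4 CPM, were lower.

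Adhesion genes, which include epithelial and mesenchymal sets, were divided. Of 26, 12 were higher (median 0.06), among them P-cadherin (Cdh3, at 48.1 and 48.5 CPM against 24.1 and 23.3 CPM), E-cadherin (Cdh1, 0.22) and the claudins Cldn4 (0.90), Cldn6 (0.78) and Cldn7 (1.19), which seal tight junctions. Lower among 8 were N-cadherin and the repressors of E-cadherin Zeb1 (-0.66), Zeb2 (-0.48) and Twist1 (-0.97), while another such repressor, Snai1, was 1.21 higher. Fibroblast markers were included as a check for RNA of another cell type, although the cultures were without feeders. Of 18, 11 passed the filter, of which 7 were higher and 4 did not pass. Their sum was 32 and 33 CPM against 15.5 and 14.5 CPM, led by Col5a1, Col5a2, Thy1 and Col6a1. Col1a1, the main fibrillar collagen chain of fibroblasts, was higher too, at 1.78 and 1.99 CPM against 0.633 and 0.736 CPM. Of the 7 markers under the filter, Col3a1 had 17 and 7 counts in the knockout and 5 and 4 in the mutant, Prrx1 and Twist2 had 0 to 5 counts, and Fap, Postn, Lum and Dcn had 0 to 2. The part of other cells in these differences was not tested.

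Neuronal and mesendodermal genes, which mark the embryonic germ layers, were more often lower in the knockout. Of 24 neuronal genes, 14 were lower and 9 higher (median -0.39), against 22.2% lower and 24.4% higher among all genes. That median was -0.16 without chromosome 2 and -0.55 over genes with a mean of at least 1 CPM. Sox1 and Pax6, the first factors of the neural plate, were lower by 1.26 and 1.24, and Tubb3 stood at 47.9 and 49.6 CPM against 79.3 and 73.1 CPM. Meis1, at 1.07 and 1.48 CPM against 6.08 and 6.02 CPM, shares exon sequence with Gm37818. Against the list, Stmn2, a regulator of microtubules in axons (chromosome 3, 8509360 to 8561606), stood at 49.3 and 48.1 CPM against 4.1 and 3.88 CPM (log2 difference 3.61, SE 0.0556, adjusted p = 1.67e-12, edgeR), and the eye field gene Vax2 at 10.5 CPM in both knockout libraries against 1.54 and 1.38 CPM. Of 12 mesendodermal genes, 6 were lower, including Cdx1 (-1.26) and Hhex (-0.71), and 2 higher, Foxa2 and Isl1 (1.70). Over genes with a mean of at least 1 CPM, 3 were lower. The summed level of this list went the other way, at 29.7 and 31.2 CPM in the knockout and 20.2 and 21.2 CPM in the mutant.

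Splicing regulators were examined because Mbnl1 is one. Of 29 tissue-specific regulators, 7 were higher and 10 lower (median -0.07). Of the 7, 3 were higher by 2-fold or more. These had means under 1 CPM and are not named. Apart from Mbnl1, the epithelial factor Esrp1 stood at 41.9 and 40.8 CPM against 20.8 and 22 CPM (log2 difference 0.95, SE 0.0468, adjusted p = 2.55e-08, edgeR). The muscle factor Rbm20 was lower (-1.04), as were Ptbp3 (-0.38), Rbfox2 (-0.28) and Celf1 (-0.16). Without knockout replicate 1 these counts were 3 higher and 6 lower. The general SR proteins and hnRNPs showed little: of 33, 2 were higher and 11 lower, all by less than 0.3 on the log2 scale. Both numbers depended on single libraries, rising or falling with the library that was left out. In the microRNA pathway, 5 of 18 genes were higher and 8 lower (median -0.05), with Tnrc6c (-0.60), a GW182 silencing protein, beside Lin28a, Lin28b and Ago2 on the lower side. The number higher was 2 with either knockout library left out.

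Growth and division genes were mostly close to equal. Of 34 G1/S genes, 5 were higher and 9 lower (median -0.01), and Ccnd2 (0.54) was higher beside Rbl1. The 2 members lower by 2-fold or more were Cdkn2a (-1.34) and Cdkn1c (-1.08), the latter described with the imprinted genes. Of 24 mitotic genes, 2 were higher and 7 lower (median -0.02), none by more than 0.31. Of 46 ribosomal protein genes, 5 were higher and 3 lower, by at most 0.15, a share passing (17.4%) below that of all genes (46.6%). The counts of these 3 lists moved when single libraries were left out. For ribosomal genes the number higher was 16 without mutant replicate 1 and 29 without mutant replicate 2, and no ribosomal gene passed in edgeR with either knockout library left out (without replicate 1, 1 was higher and 2 lower at an unadjusted p under 0.05, and without replicate 2 none). For G1/S genes the number lower was 4 and 3 without knockout replicates 1 and 2, and the number higher was 3 with either knockout library left out and 11 without mutant replicate 1. For mitotic genes the number lower was 4 and 3 without knockout replicates 1 and 2, and with either left out none was higher in edgeR, also at an unadjusted p under 0.05.

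No chromosome stood apart, with medians between -0.04 and 0.05 on the log2 scale. In windows of 20 Mb holding at least 20 genes with a mean of 1 CPM or more, medians ran from -0.16 on chromosome 14 to 0.17 on chromosome 4.

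The wild-type libraries entered none of the tests above, other than the alternative model over all 8 libraries, and their levels are given for orientation. They were set beside both groups after scaling all 8 libraries together, with 0.1 CPM added before taking logs. Among 372 genes that were at least 2-fold higher in the knockout with a mean of at least 1 CPM, wild type lay nearer the mutant in 316 (84.9%). The median differences were 1.14 between knockout and wild type and -0.36 between mutant and wild type. Among 140 lower genes it lay nearer the mutant in 128 (91.4%), with medians of -1.13 and 0.15. These values share the libraries that chose the genes and carry no test. Mbnl1 (26 CPM in wild type) and Lefty2 (69.5 CPM) are examples in which wild type lay next to the mutant. H19 (46 CPM), Gata4 (7.98 CPM) and Lama1 (150 CPM) lay between the groups. Some genes went the other way: Stmn2 had 52.5 CPM, Thbs1 14.2 CPM and Tagln 9.9 CPM in wild type, near the knockout, and Zfp951 had 6.69 CPM, above both groups. For these the low level was that of the mutant.

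**Figure D5:**
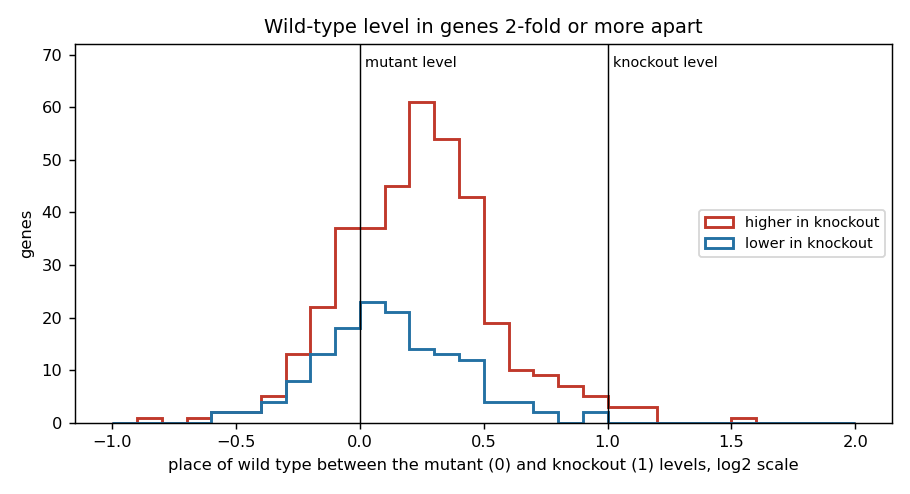
Place of the wild-type level between the mutant level (0) and the knockout level (1) on the log2 scale, as a histogram of the 372 higher and 140 lower genes that were at least 2-fold apart with a mean of at least 1 CPM. Most genes lie below 0.5, nearer the mutant, as 316 of 372 and 128 of 140 do, with a tail of genes at the knockout level.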

How the data were processed

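Raw read counts per gene were deposited by the authors, 1 file per library with no normalization. The aligner was STAR 2.5.0 and the build mm10, per the submitters' processing notes. For counting, the annotation release and strand setting are not given in those sources. Noncoding genes inside a coding gene had a median of 26 counts per kb on its strand (204 genes) and 0.209 on the opposite strand (386 genes). Of 43346 identifiers, 42462 were matched to a GENCODE M21 symbol without their version suffix and 884 were not. Ribosomal RNA-like loci held 2.237 to 2.696% of the counts.

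Tests used edgeR 4.0.16 in R 4.3.3. Genes were kept by filterByExpr (minimum count 10, total 15), leaving 17367 of 26433. Libraries were scaled by TMM, and a robust quasi-likelihood model was fitted to the 4 libraries (2 residual degrees of freedom, biological coefficient of variation 4.63%). Adjusted p-values are Benjamini-Hochberg over all tested genes, with calls under 0.05. SEs were derived from the F statistic. An exact permutation test of 2 against 2 libraries cannot go below a two-sided p of 0.333. The procedure was tested on 5 simulations of 17367 genes. Of 250 genes changed by each size, it found 42.8% at 1.25-fold, 70.4% at 1.5-fold, 77.6% at 2-fold and 97.2% at 4-fold, and 90 of 810 calls were false.

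The members, gene lists and tests were chosen with earlier results of these data known. The naming rule took Trim71 and the Mbnl genes, the 15 genes highest and 15 lowest among calls whose mean log2 CPM was 1 or more and whose libraries did not overlap, the 5 highest and 5 lowest with a mean of at least 100 CPM, up to 4 called members per list and each member of a count of 5 or fewer. The 135 named genes followed through the alternatives are not all described in the text, and which of them to describe was a further choice. Further list members were named with their values in view, and 587 calls with only a clone or model name were left unnamed. Alternatives were a model over all 8 libraries, median-ratio factors, library size alone, DESeq2 1.42.0, other filters, the replicate number as a block, omission of chromosome 2 and of each library. Exon usage was not analysed here.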

Additional observations from a re-analysis of the deposited data

How the results depend on the processing

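The number of genes passing was 8094, and 4456 to 9281 with 1 library left out (4456 without knockout replicate 2, 4723 without knockout replicate 1). The number higher ranged from 2521 to 4811 and the number lower from 1935 to 4530. Genes 2-fold or more apart numbered 1341, and 515 when only genes with a mean of at least 1 CPM were tested. DESeq2 passed 6223 genes, the model over all 8 libraries 8252, no filter 8743 and omission of chromosome 2 7397. Scaling by library size alone gave 4682 higher and 3373 lower and moved the median of all genes to 0.0227. The median was also above 0 without mutant replicate 1 (0.00557) and without mutant replicate 2 (0.00774). None of the 135 named genes changed direction. Of 135 named genes, 10 missed the threshold without knockout replicate 1 and 12 without knockout replicate 2, among them Sox2 (adjusted p = 0.0552 and 0.0776), Srgn and ribosomal protein genes. Sox2 was 0.24 higher with all libraries.

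Replicate numbers did not pair the libraries: their deviations correlated at -0.005 across genes. With the replicate block 8280 genes passed, and all 135 named genes kept their side of the threshold. With 2 libraries per group the spread of a gene is known mainly through other genes. Genes near 3 counts (0.0347 to 0.0365 CPM) cannot be followed to lower levels, and intervals from counting error alone would be too narrow, since libraries of a group differed by a chi-square of 6.47 per degree of freedom in the knockout and 24.2 in the mutant.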

Other observations

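Some gene families outside the lists were looked at after their values were seen, so their counts are a description with no test of the family. Of 9 tested Oas genes, which encode sensors of double-stranded RNA, 8 were higher in the knockout and 1, Oasl2, was lower (median log2 difference 1.44). Oas1a stood at 5.11 and 4.78 CPM in the knockout and at 0.322 and 0.374 CPM in the mutant, and Oas1g at 1.29 and 1.32 CPM against 0.0836 and 0.133 CPM. The other members were at or under 1.29 CPM in each library. The Oas1 genes are close paralogs, so reads may be shared among them.

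In the Hedgehog pathway 5 of 15 genes were higher and 5 lower (median -0.01), against 24.4% higher and 22.2% lower among all genes. Those higher include its general targets Ptch1 (log2 difference 1.38), Hhip, at 7.96 and 7.88 CPM against 1.99 and 2.21 CPM, and Gli1, at 170 and 176 CPM against 116 CPM in both mutant libraries. The transcription factors Gli2 and Gli3 were lower by 0.18 and 0.52. The ligand Shh was among those higher, at 0.149 and 0.252 CPM against 0.0239 and 0.0362 CPM.

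Of 19 zinc finger genes at the distal end of chromosome 4, between 145510759 and 147848366, 15 were lower and the other 4 did not pass (median -0.75). Rex2, given above with the naive genes, is among the 15. Zfp534 stood at 34 and 29.4 CPM against 68.5 and 68.3 CPM, and Zfp990 at 229 and 225 CPM against 342 and 291 CPM. These genes are near-identical repeats of one another, so the level of a single member is uncertain. Of 61 replication-dependent histone genes, 18 were higher and 1 lower (median 0.14), against 24.4% higher and 22.2% lower among all genes. Hist1h2aj and Hist1h2al, among the 61, are annotated as pseudogenes. Hist1h1e, which shares exon sequence with Gm11398 and Hist1h2be, stood at 403 and 420 CPM against 306 and 314 CPM. Many of those that did not pass were uneven between the mutant libraries, such as Hist1h3h at 66.8 and 103 CPM against 105 and 108 CPM in the knockout.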
